A study of Mus musculus with 16 samples.

Results

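The extracellular matrix and basement membrane genes described here are a list of 47 genes chosen by name, out of 54193 genes whose counts were summed in mouse brain microvascular endothelial cells (mBMEC). They comprise 6 fibrillar collagens, 9 basement membrane and other collagens, 6 laminin chains, 4 basement membrane linkers and proteoglycans, 6 elastic fibre proteins, 5 interstitial glycoproteins and matricellular proteins, 5 crosslinking and hydroxylating enzymes, and 6 matrix proteases and their inhibitors. A filter on low counts kept 14838 genes and 46 of the 47 members. Postn, which encodes the matricellular protein periostin, held 0 to 7 counts per library and was not tested.

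The cells came from adult mice aged 8 to 10 weeks that carried a floxed Pdcd10 (Ccm3) allele and the Cdh5 (PAC)-CreERT2 transgene, whose Cre is driven by the VE-cadherin promoter. They were grown on collagen I after puromycin selection, and each culture was made from pooled brains. KO cells had received 4-hydroxytamoxifen and WT cells had not, so the drug that activates Cre and the loss of Ccm3 cannot be told apart. The 16 libraries comprised 3 WT, 3 KO, 2 WT+P, 3 KO+P, 2 WT+R and 3 KO+R, where P stands for 10 µM propranolol and R for 100 nM rapamycin, each given for 24 h.

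Endothelial cells lay down the vascular basement membrane, in which laminin trimers of an alpha, a beta and a gamma chain and a network of type IV collagen are joined by nidogens and the proteoglycans perlecan (Hspg2) and agrin. The fibrillar collagens, fibronectin and the elastic fibre proteins build the interstitial matrix around it. Lysyl oxidases crosslink collagen and elastin, lysyl hydroxylases modify collagen chains, and matrix metalloproteinases, held in check by TIMP proteins, cut matrix at or near the cell surface.

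Depth ranged from about 18830000 to 26200000 counts per library. Levels are given in CPM, a gene's counts scaled by the library's total. Pdcd10 was at 9.72, 11 and 9.73 CPM in KO libraries and at 31.2 and 47 CPM in WT replicates 2 and 3, but at 11.5 CPM in the library labelled WT replicate 1, so calls in comparisons with WT are also given without that library. All 12 endothelial markers reached 1 CPM, and their summed level lay between 8576 and 16727 CPM, lowest in the replicate 1 libraries with propranolol (8576 CPM in WT+P and 9242 CPM in KO+P). The summed mural cell markers ranged from 72.2 to 2566 CPM, almost all of it Tagln and Acta2, while Higd1b was at 0 in every library and Rgs5 did not pass 1.69 CPM. The 10 fibroblast markers summed to 1.48 to 12.9 CPM, with Dcn or Pdgfra as the largest part and Dpt, Lum and Slc6a13 at 0. Astrocyte and microglia markers summed to at most 7.54 and 2.22 CPM, and oligodendrocyte markers to 23.2 to 58.6 CPM, most of it Cnp. Libraries with the same replicate number deviated together from their group means, so a fit with the replicate number as a block is given wherever it changed a call.

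Summed over all transcript models, fibronectin, Sparc and the basement membrane genes led the members in level. The members together took 2.12 to 5.6% of the library total on this adjusted scale. Fn1, the gene of fibronectin, alone took 28.9 to 52.9% of the members' counts. On the length-corrected TPM scale, in which all transcripts of a library add to a fixed total, the highest group means in WT were those of Fn1 (6631), Sparc (5074), Col4a1 (1340) and Col4a2 (1032), followed by Timp2 (786) and Hspg2 (726). The Fn1 values include a noncoding model that retains an intron, which took 55.6, 48.2 and 30% of the Fn1 counts in WT. Coding Fn1 transcripts that span the EDA exon (described below) had lower TPM. Those with the exon were at 723.6, 795.6 and 1794 TPM in WT, and those without it at 557.7, 921 and 2485 TPM. The place of Fn1 above Sparc thus rests on the other Fn1 models. Over all 16 libraries the median was higher for Sparc (4977 TPM) than for Fn1 (4397 TPM). The fibrillar collagens ranged widely, with WT means of 6.87 TPM for Col1a1, 4.25 for Col1a2 and 6.73 for Col3a1 but 66.7 for Col5a2. Among the laminin alpha chains Lama4 (199 TPM in WT) and Lama5 (66.3 TPM) were the main ones, and Lama3 held 1 to 26 counts per library.

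**Figure D1:**
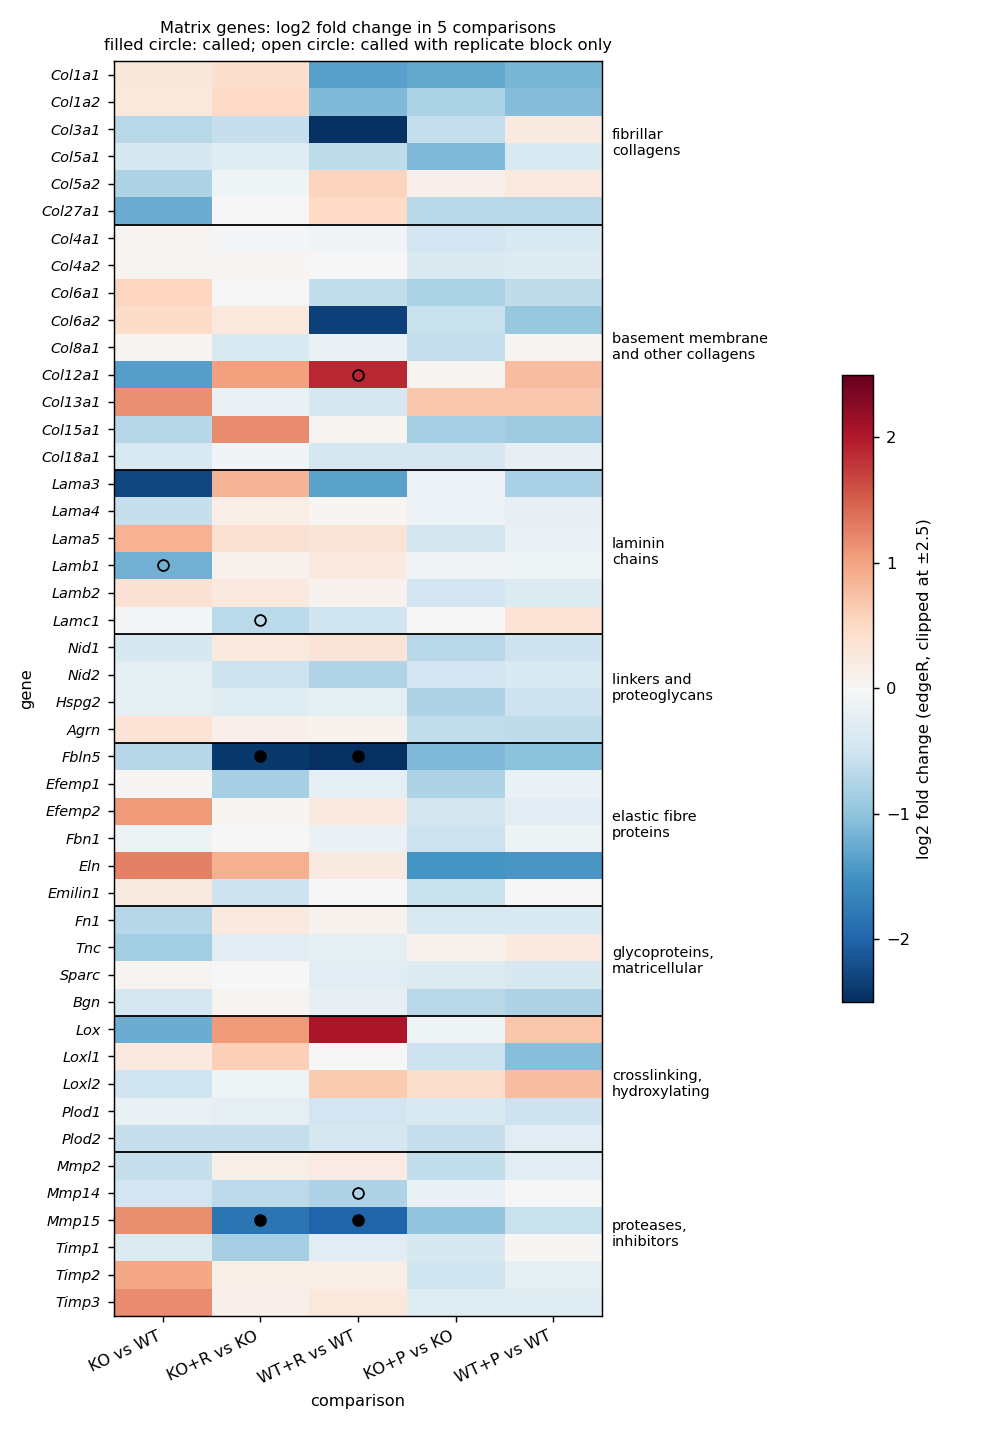
Log2 fold changes of the 46 tested matrix genes (rows, grouped by role) in 5 comparisons (columns), from the edgeR fit over all 16 libraries, on a colour scale clipped at 2.5 in either direction. Filled circles mark the genes called in that fit and open circles those called only with the replicate block; Fbln5 and Mmp15 are the only filled ones, both lower with rapamycin in KO and in WT cells.

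Rapamycin, an inhibitor of mTORC1, lowered Fbln5 and Mmp15 in both genotypes. Fbln5 encodes fibulin-5, a secreted protein that binds integrins and tropoelastin and organises elastic fibres. Mmp15 encodes a membrane-anchored metalloproteinase (MT2-MMP). Calls required both a fold change over 1.5 and an adjusted p (Benjamini-Hochberg, over all genes tested) below 0.05. By that rule 2 of the 46 members, these ones, were called in KO+R vs KO, where 1.51% of all genes tested were called. The same number, again these genes, was called in WT+R vs WT, with a background of 1.4%. DESeq2 called 4 members in KO+R vs KO and 2 in WT+R vs WT (backgrounds 3.19 and 3.65%), and with the block 6 in each (7.6 and 6.6%). In bulk RNA, fewer cells that express a gene and less RNA per cell cannot be told apart.

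Fbln5 was at 160, 74.6 and 94.6 CPM in KO replicates 1, 2 and 3 and at 17.3, 15.8 and 28.2 CPM in KO+R. In WT it was at 260, 145 and 139 CPM, and in WT+R at 25 and 20.1 CPM. Every rapamycin library lay below every untreated one, and the ranges of WT+R and KO+R overlapped. The fold change was 5.36-fold lower in KO+R (log2 −2.42, SE 0.44, adjusted p = 0.0175 by the quasi-likelihood test of edgeR, n = 3 and 3) and 8.03-fold lower in WT+R (log2 −3.01, SE 0.53, adjusted p = 0.0175 from the same edgeR fit, n = 2 and 3).

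Mmp15 was at 33.9, 26.3 and 38.8 CPM in KO and at 8.21, 8.24 and 11.6 CPM in KO+R. In WT it was at 16.7, 14.3 and 13.1 CPM, and in WT+R at 4.25 and 3.05 CPM. The 4 groups thus kept the order KO, WT, KO+R, WT+R with no overlap between neighbours. The fold change with rapamycin was 3.53-fold lower in KO (log2 −1.82, SE 0.35, adjusted p = 0.0246 from edgeR) and 4.02-fold lower in WT (log2 −2.01, SE 0.42, adjusted p = 0.0322 from edgeR).

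Leaving out single libraries ended several of these calls at similar sizes. For Fbln5 in KO+R vs KO, the edgeR adjusted p rose above 0.05 without KO replicate 1 (0.0711), KO replicate 3 (0.0537), KO+R replicate 1 (0.0929) or KO+R replicate 2 (0.0852), at log2 values of −2.05 to −2.72 over all 6 omissions. For Mmp15 in KO+R vs KO it stayed under 0.05 only without KO replicate 2 and was otherwise 0.0623 to 0.116, at −1.69 to −1.99. In WT, Fbln5 lost its call without WT+R replicate 1 (0.175) or 2 (0.105), and Mmp15 lost it without any one of the 5 libraries (0.065 to 0.214), the library labelled WT replicate 1 included (log2 −1.91, adjusted p = 0.087). With the replicate block, the KO+R calls of both genes held in each of the 6 omissions, while in WT+R Fbln5 lost its call without either WT+R library (0.123 and 0.0691) and Mmp15 without WT replicate 1 or either WT+R library (0.0611 to 0.126).

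The start regions of Fbln5 and Mmp15 are shown because both were lower with rapamycin in both genotypes, and that of Lamc1 as one further member called with the block. Mmp14, Col12a1 and Lamb1, also called with the block, are not printed. Each sequence gives the 250 bases upstream of the start of the coding transcript with the most counts, read 5′ to 3′ on the gene's strand from GRCm39. Fbln5-203 held 80.1 to 90% of the Fbln5 counts and starts inside a longer Fbln5 gene model. Mmp15-201 held at least 99.9% and Lamc1-201 57 to 88.6%. Capitals mark the letters CACCC and GGGCGG on either strand.
Mmp15, chr8:96078645-96078894, plus strand: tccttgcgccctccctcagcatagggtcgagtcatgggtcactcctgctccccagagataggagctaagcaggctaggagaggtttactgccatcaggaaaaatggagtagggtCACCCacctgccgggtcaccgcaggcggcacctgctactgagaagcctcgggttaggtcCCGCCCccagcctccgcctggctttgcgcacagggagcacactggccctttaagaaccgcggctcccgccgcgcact
Fbln5, chr12:101784728-101784977, minus strand: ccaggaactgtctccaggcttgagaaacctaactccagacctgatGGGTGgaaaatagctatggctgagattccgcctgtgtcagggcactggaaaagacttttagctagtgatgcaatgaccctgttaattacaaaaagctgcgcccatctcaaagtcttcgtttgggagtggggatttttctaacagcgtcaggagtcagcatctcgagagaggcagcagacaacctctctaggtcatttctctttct
Lamc1, chr1:153208775-153209024, minus strand: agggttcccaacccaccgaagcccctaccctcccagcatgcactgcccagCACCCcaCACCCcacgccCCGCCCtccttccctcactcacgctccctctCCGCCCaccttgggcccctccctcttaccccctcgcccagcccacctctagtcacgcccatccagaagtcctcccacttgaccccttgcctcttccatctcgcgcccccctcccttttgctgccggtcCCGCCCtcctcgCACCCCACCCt

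The base content of these windows differed, with 63.2% G and C for Mmp15, 68.8% for Lamc1 and 48% for Fbln5. CACCC, the core that KLF factors bind, occurred 1 time each upstream of Mmp15 and Fbln5 and 4 times upstream of Lamc1, and GGGCGG, the GC box of SP1, occurred 1, 0 and 3 times. The counts depend on the start taken: the 300-base window at the annotated start of the Fbln5 gene held GGGCGG 3 times and CACCC 0 times. TGANTCA (AP-1), GGAATG (TEAD), ACGTG (hypoxia response core) and TATAAA were searched too and did not occur in these 3 windows. Of the windows not printed, that of Mmp14 held GGAATG 1 time and that of Col12a1 held ACGTG 1 time. In windows of 300 bases around the annotated start of each gene, both strands read, CACCC was held by 32 of 47 members (68.1%) and by 58.7% of 21770 genes, and GGGCGG by 30 members (63.8%) and 42.5% of genes. The other 4 were held by 4.26 to 17% of member windows and 7.14 to 20.7% of all windows. A match is a run of letters and was not tested as a binding site.

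**Figure D2:**
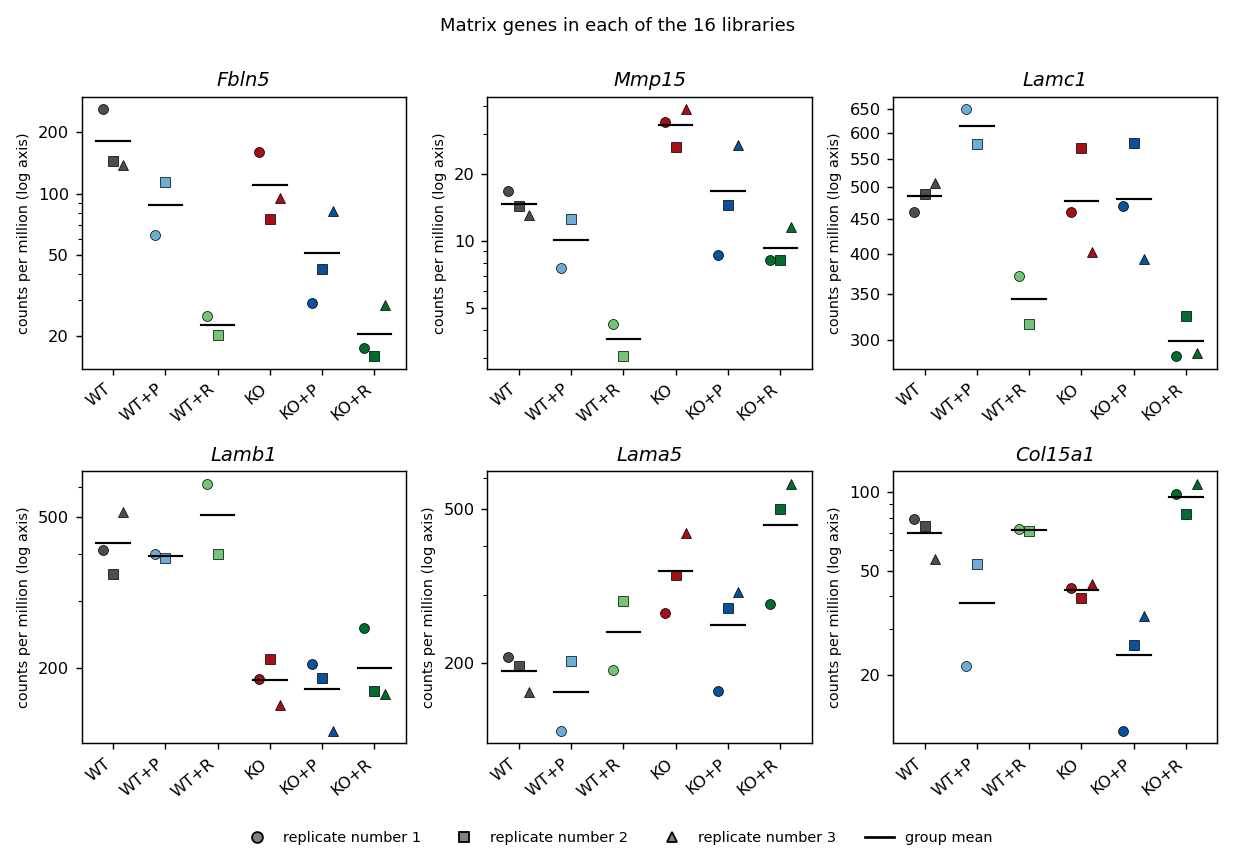
Levels of 6 matrix genes in CPM (log axis) in each of the 16 libraries, by group, with the replicate number as the point shape and the group mean as a bar. The group means of Fbln5 and Mmp15 are lowest in WT+R and KO+R, though Mmp15 in WT+P replicate 1 (7.54 CPM) lies below every KO+R library. Lamb1 is at 137 to 256 CPM in all KO groups against 354 to 611 CPM in all WT groups, and Col15a1 is highest in KO+R.

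Lamc1, the gamma chain shared by most laminin trimers, was also lower with rapamycin in KO cells when the replicate block was fitted. It was at 461, 570 and 403 CPM in KO and at 284, 325 and 287 CPM in KO+R, with no overlap. The difference was 1.60-fold (log2 −0.68, SE 0.16) with an adjusted p of 0.0531 in edgeR, and 0.0165 with the replicate block, where 4.98% of genes were called. With the block it lost the call without any library other than KO replicate 3 (0.0561 to 0.102). In WT+R it was at 372 and 316 CPM against 460, 489 and 508 CPM in WT (log2 −0.50, adjusted p = 0.23 in edgeR and 0.0735 with the block). The other 5 laminin chains had log2 values between 0.11 and 0.84 in KO+R vs KO, none of them called.

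Mmp14, the membrane-anchored collagenase MT1-MMP, was at 19.3 and 34.1 CPM in WT+R against 32.2, 59.6 and 45.4 CPM in WT, so the groups overlapped. Within replicate numbers 1 and 2 the differences were −0.72 and −0.80 on the log2 scale, and the gene was called with the block alone (adjusted p = 0.044 from edgeR, where 4.57% of genes were called, against 0.293 without it). Without any one library the block's call was lost (0.0567 to 0.381). In KO cells it was at 26.5, 37.9 and 33.8 CPM untreated and at 19.4, 19.3 and 23.3 CPM with rapamycin, with no overlap, and was not called (log2 −0.66, adjusted p = 0.325, and 0.0538 with the block, from edgeR). The gelatinase gene Mmp2 had log2 values of 0.15 in KO and 0.21 in WT (0.03 without the library labelled WT replicate 1), and the inhibitors Timp2 and Timp3 lay between 0.12 and 0.27 in both, not called.

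Col12a1, a collagen associated with fibrils, was the member that edgeR called higher in WT+R vs WT on all libraries, and only with the block. It was at 2.9, 21.2 and 7.38 CPM in WT and at 16.6 and 61.3 CPM in WT+R, which overlapped, while the differences within replicate numbers 1 and 2 were 2.33 and 1.51 on the log2 scale. The block gave log2 2.07 (SE 0.43, adjusted p = 0.0171 from edgeR) and the fit without it 1.89 (SE 1.11, adjusted p = 0.551), or 1.45 without the library labelled WT replicate 1. The block's call was lost without WT replicate 1 (0.0734), WT replicate 2 (0.0501) or WT+R replicate 1 (0.215). Lox, which encodes lysyl oxidase, had a like pattern, at 1.06, 62.3 and 8.78 CPM in WT and 4.92 and 195 CPM in WT+R, and was not called (log2 2.05, adjusted p = 0.746 in edgeR, 0.0654 with the block, and log2 1.5 without the library labelled WT replicate 1). The summed mural markers lay at 1465 to 2566 CPM in WT+R against 96.7 to 863 CPM in WT, and their part in these values was not tested. Tagln and Acta2 made up most of both sums. Other markers of the list were mixed. Cnn1 was at 1.07 and 75.9 CPM in WT+R against 0.046, 24.2 and 1.85 CPM in WT. Myh11 was at 1.07 and 6.66 against 0.966, 1.57 and 0.615 CPM. Pdgfrb was at 4.7 and 3.05 CPM against 2.81, 1.72 and 4.84 CPM, higher within both replicate numbers. Rgs5, at 0.0895 and 0.043 CPM against 0.322, 0.299 and 0.943 CPM, and Notch3 were lower within both. Cspg4 was lower in number 1 and higher in number 2, and Des was higher in both. Kcnj8, Abcc9 and Higd1b did not pass 0.23 CPM in these libraries.

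Col3a1, a fibrillar collagen, was at 11.5, 18.4 and 14 CPM in WT and at 1.21 and 4.04 CPM in WT+R, without overlap, and was not called (log2 −2.48, SE 1.16, adjusted p = 0.402 from edgeR). In KO it was at 5.07, 7.74 and 14.3 CPM and in KO+R at 0.741, 1.6 and 15.8 CPM, lower in replicates 1 and 2 and not in 3. Col15a1, a basement membrane zone collagen, was at 43.2, 39.5 and 44.5 CPM in KO and at 98.7, 82.5 and 108 CPM in KO+R, 2.27-fold higher with no overlap (log2 1.18, SE 0.34, adjusted p = 0.127 in edgeR, 0.0515 with the block, 0.0192 in DESeq2, which called 3.19% of genes). The WT+R libraries, at 72.2 and 71.4 CPM, lay within the WT range of 55.5 to 79 CPM. The interaction of rapamycin with genotype for Col15a1 was 1.14 on the log2 scale with an unadjusted p of 0.0425 and an adjusted p of 1 in edgeR, so the genotypes were not shown to differ.

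The members had no common direction with rapamycin that held when libraries were left out. In KO+R vs KO their median log2 fold change was 0.01, with 21 of 46 below 0, against −0.02 and 53.1% of all genes tested, and the median lay between −0.19 (without KO+R replicate 3, 31 below 0) and 0.16 (without KO+R replicate 1) when single libraries were left out. Without overlap 1 member was higher and 8 were lower, where 24.1% of all genes did not overlap. In WT+R vs WT the median was −0.17, with 27 of 46 below 0 against 51.4% of all genes. It was 0.08 with the block, −0.48 without WT+R replicate 2 (34 below 0) and −0.01 without WT+R replicate 1. In that comparison 0 members were higher and 7 lower without overlap, against 28.6% of genes in either direction. The laminin chains had medians of 0.21 and 0.06 and the proteases and inhibitors of −0.27 and −0.06 in KO and WT cells. The median of the fibrillar collagens was −0.06 in KO, and in WT its sign turned with the block, from −0.87 to 0.39.

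Of 107 other matrix genes listed beside the members, 79 were tested, and 1 was called, in both rapamycin comparisons (backgrounds 1.51 and 1.4%), against 4 in each with the block (4.98 and 4.57%). Vwa1, which encodes WARP, a basement membrane protein that binds perlecan, was at 714, 502 and 455 CPM in KO and at 1762, 1143 and 1076 CPM in KO+R. In WT it was at 793, 739 and 523 CPM and in WT+R at 1818 and 1593 CPM. Rapamycin thus moved it the opposite way to Fbln5 and Mmp15, by log2 1.25 in KO (SE 0.26, adjusted p = 0.0312 from edgeR) and 1.32 in WT (SE 0.28, adjusted p = 0.0352 from edgeR). With the block Sparcl1, named here after its values were seen, was lower in both genotypes, by log2 −1.36 in KO (adjusted p = 0.0267 from edgeR) and −1.62 in WT (adjusted p = 0.0265 from edgeR), and Matn2 and Col28a1 were lower in KO+R and Ltbp3 and Mmp3 higher in WT+R. Col28a1 did not pass 0.455 CPM in the KO and KO+R libraries. In the KO vs WT, KO+P vs KO and WT+P vs WT comparisons 0 of the 79 were called by edgeR, with 4, 7 and 5 at an unadjusted p under 0.05.

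Between KO and WT cells the members with the smallest unadjusted p-values were the laminin chain genes Lamb1 and Lama4, both lower in KO, and Lamb1 alone passed a test on all libraries in edgeR, only with the block. In KO vs WT, 0 of 46 members were called by edgeR (background 0.00674%), 10 had an unadjusted p under 0.05 (6.07% of all genes) and DESeq2 called 1. With the replicate block edgeR called Lamb1 alone (background 0.182%). Without overlap 5 members were higher and 9 lower in KO, where 13.2% of all genes did not overlap, and 5 of these 14 were laminin chains. The members' median log2 fold change was −0.19, with 26 of 46 below 0 against 51.2% of all genes, and the median over all genes tested was −0.01. The members' median was −0.32 without the library labelled WT replicate 1, −0.08 without WT replicate 2, −0.10 without WT replicate 3, −0.09 without KO replicate 1 and −0.46 without KO replicate 3, and within replicate numbers 1, 2 and 3 it was −0.05, −0.48 and 0.01.

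Lamb1, the beta-1 chain, was at 408, 354 and 515 CPM in WT and at 187, 211 and 160 CPM in KO. It was 2.29-fold lower in KO (log2 −1.20, SE 0.22), with adjusted p = 0.262 in edgeR, 0.0473 with the block and 0.000338 in DESeq2 (background 0.431%). When the library labelled WT replicate 1 was left out of the blocked fit the value was −1.35 (adjusted p = 0.0455), and without any one of the other 5 libraries the call was lost (0.0575 to 0.336). The drugs did not close this gap: Lamb1 was at 137 to 205 CPM in KO+P and 171 to 256 CPM in KO+R against 391 to 611 CPM in WT+P and WT+R. No test of KO+P or KO+R against WT was run.

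Lama4, an endothelial laminin alpha chain, was lower in KO like Lamb1, without being called by edgeR. It was at 568, 474 and 749 CPM in WT and 425, 379 and 395 CPM in KO (log2 −0.58, adjusted p = 0.39 in edgeR and 0.0947 with the block). Lama5, the alternative endothelial alpha chain, was at 208, 197 and 169 CPM in WT and 269, 337 and 433 CPM in KO (log2 0.86, adjusted p = 0.605 in edgeR and 0.104 with the block). Neither pair of groups overlapped. Without the library labelled WT replicate 1, the block called Lama5 too, at log2 1.12 (SE 0.14, adjusted p = 0.0173 from edgeR), and called it higher in WT+R vs WT as well (0.75, adjusted p = 0.0336 from edgeR), where the same omission gave 0.40 (adjusted p = 0.768) without the block and the groups overlapped. Lamb2, the beta-2 chain, was at 311, 267 and 247 CPM in WT and 326, 352 and 388 CPM in KO, also without overlap and not called (log2 0.37, adjusted p = 0.978 from edgeR), and Lamc1 was at log2 −0.02. Lama3, also lower without overlap, was at 0.506, 0.448 and 1.07 CPM in WT and 0.155, 0.114 and 0.133 CPM in KO and was not called (log2 −2.28, adjusted p = 0.508 from edgeR).

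Expressed per length, Lama5 made up 27.3, 29.7 and 18.5% of the summed TPM of Lama4 and Lama5 in the WT libraries and 33.7, 42.6 and 51.3% in KO (mean 25.2% ± 5.9 and 42.6% ± 8.78, SD, n = 3 each). Lamb2 made up 45.3, 45.8 and 35.2% of Lamb1 and Lamb2 in WT and 65.7, 65.1 and 71.9% in KO (42.1% ± 5.99 and 67.5% ± 3.76, SD, n = 3 each). Both shares were higher in every KO library than in every WT library, and the exact two-sided permutation test gave p = 0.1 for each, the smallest that 3 against 3 libraries allow. Rapamycin left the order in place, with Lama5 shares of 37.1, 52.5 and 61.3% in KO+R and 24 and 31.5% in WT+R. Exons of Lama4 overlap other genes over 12.9% of their length, and since the libraries were not stranded such reads cannot be assigned to a strand.

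**Figure D3:**
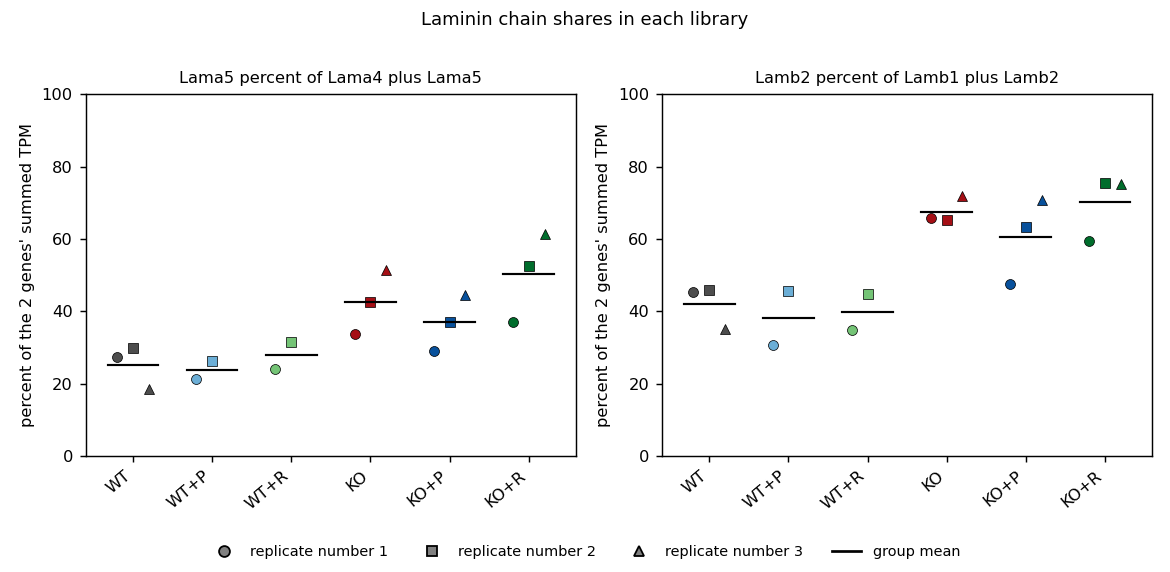
Share of Lama5 in the summed TPM of Lama4 and Lama5 (left) and of Lamb2 in that of Lamb1 and Lamb2 (right), in percent, for each library by group, with the replicate number as the point shape and the group mean as a bar. KO libraries lie above WT libraries in both panels, at 33.7 to 51.3% against 18.5 to 29.7% and at 65.1 to 71.9% against 35.2 to 45.8%.

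Among proteases and inhibitors, Mmp15 and Timp3 were higher in KO without overlap and without being called by edgeR. Mmp15 was 2.25-fold higher in KO with no overlap (log2 1.17, SE 0.35, adjusted p = 0.498 in edgeR, 0.117 with the block, 0.0139 in DESeq2 with the block, where 2.67% of genes were called). Timp3 was at 192, 223 and 115 CPM in WT and at 249, 427 and 536 CPM in KO (log2 1.19, adjusted p = 0.889), and Timp2 at 1480, 2684 and 1185 against 2174, 3676 and 4637 CPM (log2 0.97, adjusted p = 0.978, groups overlapping), both from edgeR. Mmp2 went the other way, lower in KO without overlap and not called (log2 −0.58). It was at 31.5, 34.5 and 34.5 CPM in KO and at 37.1, 72.9 and 40 CPM in WT. Mmp14 had a log2 value of −0.48, with groups overlapping. In TPM, Timp2 exceeded Mmp14 30.8-, 29- and 17.5-fold in WT and 54.8-, 65.9- and 92.7-fold in KO. Exons of other genes overlap 21.3% of Timp3 and 24.3% of Mmp2.

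Among the collagens, Col27a1 had the largest difference without overlap between KO and WT, at 2.25, 4.14 and 2.71 CPM against 4.79, 7.25 and 9.52 CPM (log2 −1.24, SE 0.41, adjusted p = 0.582 in edgeR). Col13a1, a membrane-bound collagen, was at 2.35, 0.747 and 2.38 CPM in WT and at 4.53, 2.35 and 5.15 CPM in KO, overlapping by group but higher within each replicate number (log2 1.14, adjusted p = 0.957 in edgeR, 0.0639 with the block, 0.00197 in DESeq2 with the block). Col15a1 (log2 −0.72) and Col18a1 (log2 −0.39), both multiplexin collagens that release antiangiogenic fragments, were also lower without overlap. Col4a1 and Col4a2, the main chains of the basement membrane network, had log2 values of 0.06 and 0.07 with SEs of 0.19 and 0.16. Of the glycoproteins, Fn1 (log2 −0.71, adjusted p = 0.795) and the tenascin gene Tnc (−0.87, adjusted p = 0.635) were lower in KO without overlap, and Efemp2, the fibulin-4 gene, was higher (1.06, adjusted p = 0.74), in edgeR. None of the 5 crosslinking and hydroxylating enzymes had groups that did not overlap.

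Propranolol, a beta-blocker, went with lower values in KO cells over most of the members, and edgeR called none on all libraries. In KO+P vs KO, 0 of 46 members were called by edgeR (background 0.00674%), 7 had an unadjusted p under 0.05, all lower (12.6% of genes in either direction), 0 were called with the block (background 0.142%), DESeq2 called 0 (background 1.11%), and DESeq2 with the block called 6, all lower (background 6.29%). The median log2 fold change was −0.49, and 40 of 46 values were below 0 against 50.7% of all genes. The 79 other matrix genes tested shifted too, with a median of −0.40, 63 below 0 and 16 above. Without overlap 0 members were higher and 12 lower, where 18.7% of genes did not overlap. By group, medians ranged from −0.15 for the laminin chains to −0.75 for the fibrillar collagens, and all 6 elastic fibre genes, all 6 protease and inhibitor genes and all 4 linkers and proteoglycans were below 0.

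Hspg2, the perlecan gene, was at 1672, 1561 and 1743 CPM in KO and at 737, 942 and 1241 CPM in KO+P (log2 −0.77, SE 0.26, adjusted p = 0.326 from edgeR). Col15a1 was at 43.2, 39.5 and 44.5 against 12.2, 26.1 and 33.5 CPM (log2 −0.83, SE 0.34, adjusted p = 0.359 from edgeR). Neither gene's groups overlapped, and in both the replicate 1 library with propranolol was the lowest. Col4a1 and Col4a2 were lower too without overlap (log2 −0.48 and −0.37), and Lamc1, which was lower with rapamycin, had a value of 0.01. Fbln5 and Mmp15, called lower with rapamycin, were also lower in KO+P than in KO within each replicate number, with groups overlapping. In KO+P, Fbln5 was at 28.9, 42.7 and 82.1 CPM and Mmp15 at 8.66, 14.5 and 26.9 CPM. DESeq2 with the block called both (background 6.29%).

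The size of the propranolol shift depended on single libraries. Within replicate numbers 1, 2 and 3 the members' median log2 difference between KO+P and KO was −0.82, −0.30 and −0.35, against 0.00, −0.01 and −0.01 for all genes. Without KO+P replicate 1 the median of the fit was −0.24, with 36 of 46 values below 0, and −0.44 with the block, and without KO replicate 3 it was −0.30, with 37 below 0. Without KO+P replicate 3 edgeR called Mmp15 (background 2.24%), and with the block 7 members, Loxl2 higher and the other 6 lower (10.7%). On the adjusted CPM scale the members together took 2.12% of the total in KO+P replicate 1 and 3.3 and 3.53% in replicates 2 and 3, against 3.54 to 4.22% in KO. The summed endothelial markers were at 9242, 10987 and 13327 CPM in the same KO+P libraries and at 13397 to 15122 CPM in KO, and their part in the shift was not tested.

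In WT cells the shift was seen in 1 of the 2 replicate numbers with propranolol. In WT+P vs WT, 0 of 46 members were called by edgeR (background 0.00674%), with 3 at an unadjusted p under 0.05 (9.87% of all genes), 0 with the block (background 0.0809%), and DESeq2 called 0 (background 0.802%). The median log2 fold change was −0.32, with 35 of 46 below 0 against 49.6% of all genes, and 2 members were higher and 6 lower without overlap (21.2% of all genes). For the 79 other matrix genes the median was −0.35, with 53 below 0 and 26 above. Within replicate number 1 the median difference was −0.61, and within number 2 it was 0.02. Without WT+P replicate 1 the fit gave −0.03, and without replicate 2 it gave −1.22 and called Bgn (background 3.54%), or 6 members with the block (8.62%). Among members with a mean of at least 1 CPM, Fbln5 and Col15a1 had the largest differences without overlap. Fbln5 was at 62.6 and 114 CPM in WT+P (log2 −1.03, adjusted p = 0.504) and Col15a1 at 21.7 and 53.4 CPM (log2 −0.89, adjusted p = 0.486), both from edgeR. Without WT+P replicate 1 these values were −0.66 and −0.38, and without the library labelled WT replicate 1 they were −0.69 and −0.80.

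**Figure D4:**
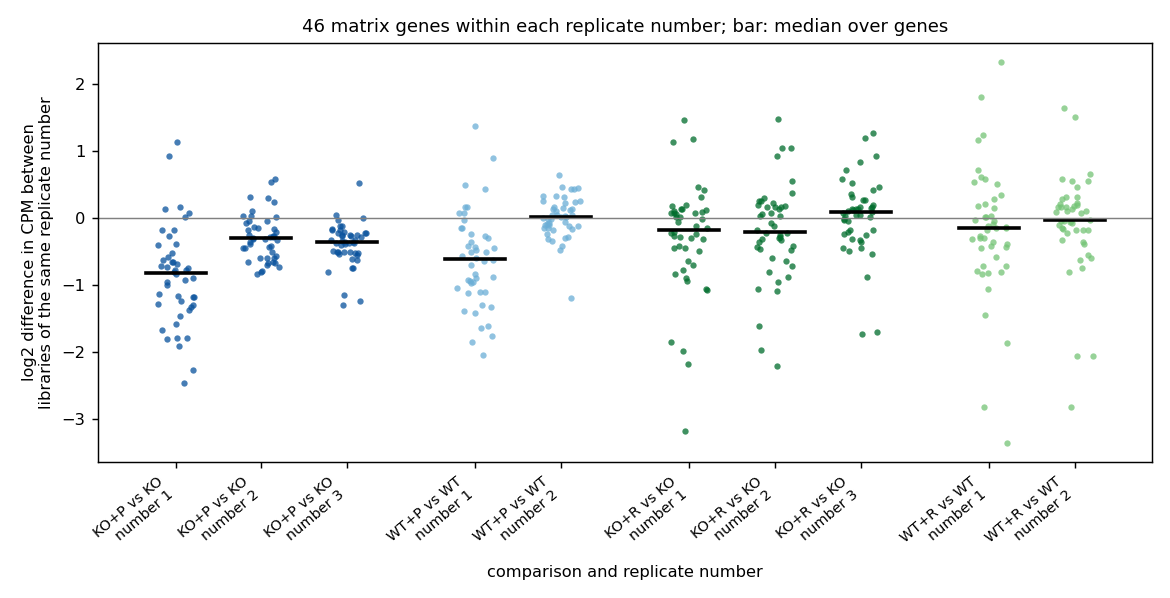
Log2 differences in CPM between the treated and the untreated library of the same replicate number, for each of the 46 tested matrix genes (points), with the median as a bar, for propranolol (left 5 columns) and rapamycin (right 5 columns). The medians with propranolol are −0.82, −0.30 and −0.35 in KO and −0.61 and 0.02 in WT, and those with rapamycin lie between −0.20 and 0.08.

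The effect of each drug was not shown to differ between genotypes for any member. In both interactions 0 of 46 members passed in edgeR, with and without the block, where 0% of all genes passed, and 1 member had an unadjusted p under 0.05 for rapamycin (0.762% of all genes) and 0 for propranolol (0.721%). With the block these numbers were 2 and 1, the latter Col5a1 at −1.18 (adjusted p = 1 in edgeR). DESeq2 passed 0 members as well, without the block and with it (backgrounds 0.0472% for rapamycin and 0.0135% for propranolol with the block).

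Several interstitial matrix genes followed the replicate number rather than the genotype or the drug. In a description with no test, the replicate number held 86.3% of the variance of log2 CPM for Col1a1, 88.9% for Col1a2, 85.5% for Col6a1, 89.3% for Col6a2, 88.9% for Col8a1 and 80.8% for Lox, and the group at most 12.9% for each. Fbn1 (77.1%), Loxl1 (75%) and Timp1 (72.9%) were alike, and Col5a2 had 71.9% by replicate number and 24.8% by group. Over the 46 members the median was 31.4% by replicate number and 50.9% by group, against 23.5 and 44.8% over all genes. There were 17 members with more by replicate number, and the share of all genes with more was not computed. Each percentage was taken alone, and there are more groups than replicate numbers, so the percentages by group and by number are not on equal terms.

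Col1a1, which encodes the main chain of type I collagen, was at 52.9, 81.3, 32.9 and 113 CPM in the replicate 3 libraries of WT, KO, KO+P and KO+R and at 0.624 to 3.22 CPM in all replicate 1 libraries. Lox was highest in replicate 2, at 19.3 to 195 CPM, and at 0.291 to 4.92 CPM in replicate 1. The replicate numbers thus differed in which interstitial genes were high, type I and VI collagen in number 3 and Lox and Timp1 in number 2. The summed fibroblast markers were at 3.94 to 12.9 CPM in replicate 3, 6.07 to 9.26 CPM in replicate 2 and 1.48 to 4.74 CPM in replicate 1, with Dpt, Lum and Slc6a13 at 0 throughout. The summed mural markers were highest in replicate 2 in 5 of the 6 groups, at 211 to 2566 CPM there against 72.2 to 1465 CPM in replicate 1 and 116 to 224 CPM in replicate 3 of the same groups, and highest in replicate 1 in KO+R (453 CPM). The part of either marker list was not tested.

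**Figure D5:**
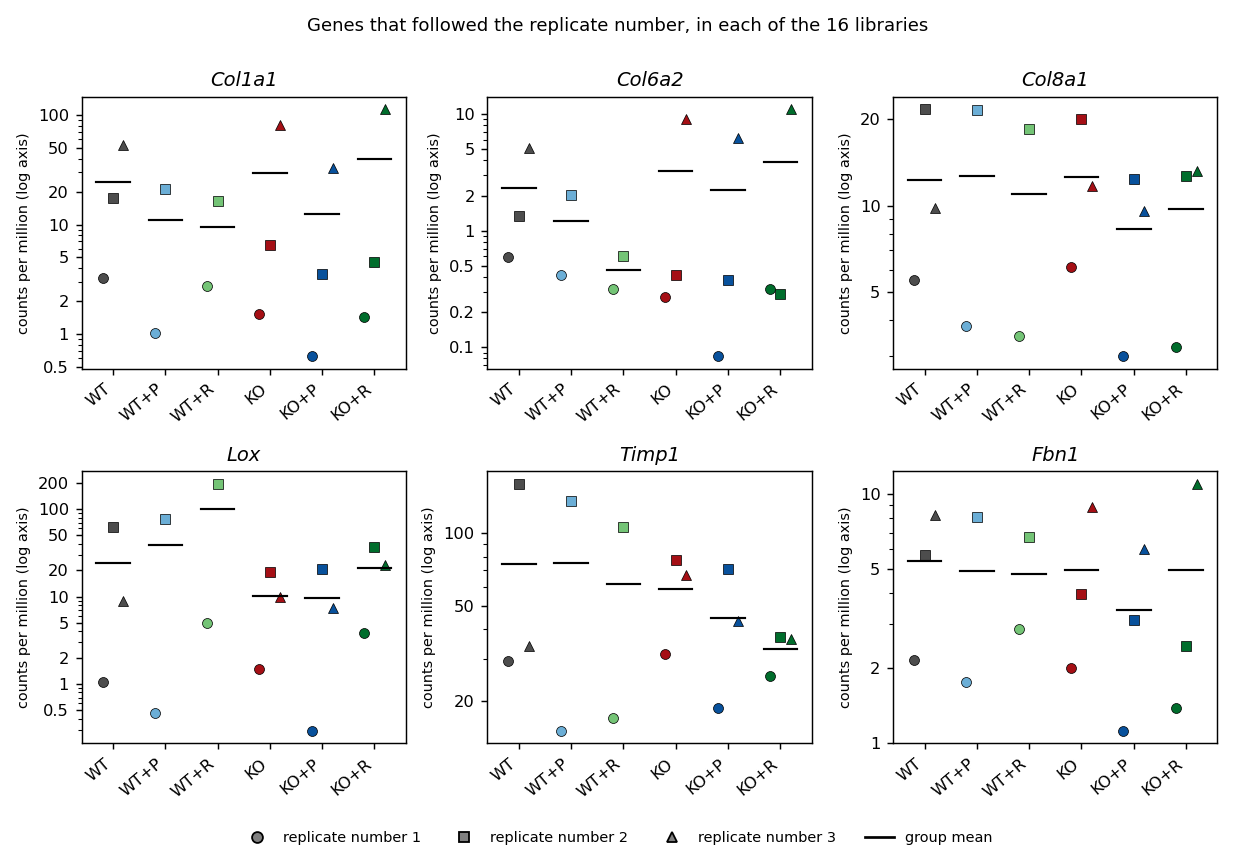
Levels of 6 matrix genes in CPM (log axis) in each of the 16 libraries, by group, with the replicate number as the point shape and the group mean as a bar. Col1a1 and Col6a2 are highest in replicate 3 in the 4 groups that have one, and Lox and Timp1 are highest in replicate 2 in all 6 groups.

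Some pairs of genes had like profiles over the 16 libraries, which deviate together by replicate number and are not independent. The pairs were picked after the values were seen. Pearson's r of log2 CPM was 0.98 for Col4a1 and Col4a2, which lie head to head on chromosome 8, and 0.98 for Col1a1 and Col1a2. It was 0.91 for Lama4 and Lamb1, 0.90 for Lama5 and Lamb2, 0.90 for Col6a1 and Col6a2 and 0.96 for Timp2 and Timp3. Other chains that assemble together did not follow each other as closely, with 0.54 for Col5a1 and Col5a2, 0.22 for Lamb1 and Lamc1 and −0.02 for Lama4 and Lamc1. Fbln5 and Mmp15 correlated at 0.67. The TPM ratio of Col4a1 to Col4a2 stayed between 1.17 and 1.57, with group means of 1.21 to 1.37.

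The estimated shares of fibronectin isoforms also followed the replicate number. The EDA exon of Fn1 (GRCm39 chr1:71642819-71643088, minus strand) marks cellular fibronectin. Its share was taken over the TPM of the coding Fn1 transcripts that span its position. This share was 56.47, 46.35 and 41.93% in WT replicates 1, 2 and 3, 65.49, 31.39 and 44.76% in KO and 73.61, 31.29 and 53.7% in KO+R. In KO+P it was 82.44, 39.86 and 60.15%. Replicate 1 was the highest of its group in all 6 groups, and the KO and WT ranges overlapped. The EDB exon (chr1:71652922-71653194) was held by 1.55 to 3.29%. A noncoding model that retains an intron, Fn1-202, took 30 to 72.1% of the Fn1 counts, so these shares rest on the rest of the reads. Within every group the Fn1-202 share ran in the same order of replicates as the EDA share. In replicates 1, 2 and 3 it was 66.3, 32.6 and 41.8% in KO, 71.1, 41.6 and 53.8% in KO+P and 72.1, 36.4 and 50.2% in KO+R. The part of this model in the EDA shares was not tested.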

How the data were processed

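RNA-seq was done on 16 libraries of mBMEC, and the authors deposited 1 Salmon table per library with expected counts (estimated read counts), TPM and an effective length for each transcript. Submitters' processing notes name Salmon 1.5.2, Trim Galore 0.6.7 and GRCm39. The study's methods describe genome alignment and gene counting instead, and the transcript index was not given in the sources used here. Expected counts were summed per gene with GENCODE M39 names (99.12% of transcripts matched; the unnamed held 0.39 to 0.57% of counts) and rounded. Salmon can divide reads between overlapping genes or alike transcripts, which limits single genes and isoforms.

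edgeR 4.0.16 (R 4.3.3) fitted its quasi-likelihood model to 6 groups with TMM factors (0.934 to 1.041) and a filter on low counts, leaving 10 residual degrees of freedom, and p-values were Benjamini-Hochberg adjusted over 14838 genes. The procedure was run on simulated data with a common spread and no replicate-number effect. That run cannot show how the fit without the block performs on these libraries, which deviate together by number. Alternatives were DESeq2 1.42.0, RLE factors, no filter, an effective length offset, the 2 groups compared alone, each library left out and the replicate number as a block. Nothing in the labels says that the numbers mark shared cultures. Deviations of same-numbered libraries correlated at 0.20 to 0.71 in KO vs WT, 0.52 to 0.71 in KO+R vs KO and 0.36 to 0.67 in KO+P vs KO (3 pairs each), so the numbers were taken to pair libraries, and at 0.50 to 0.76 over the 2 pairs of each WT drug comparison. The paper describes the replicates of WT, KO, KO+P and KO+R in its RNA-seq figure as independent cell cultures. That figure does not show WT+P and WT+R. Where those replicates were not separate cultures, p-values measure only the spread between libraries.

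Members and gene lists were chosen with earlier results of these data known. Values in every library are given for members called with or without the block and, per comparison, for the 2 largest differences without overlap among members with a mean of at least 1 CPM. Others were added after their values were seen. Start regions came from GRCm39.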

Additional observations from a re-analysis of the deposited data

How the results depend on the processing

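The numbers of members called moved with the setting. In KO vs WT, 0 members were called, against 1 with the replicate block, 1 in DESeq2, 8 in DESeq2 with the replicate block (2.67% of all genes), and 0 to 2 with the block when single libraries were left out. In KO+R vs KO, 2 were called, against 4 in DESeq2 (3.19%), 6 in DESeq2 with the block (7.6%) and 0 to 2 without single libraries. In KO+P vs KO, 0 were called, against 6 in DESeq2 with the block (6.29%), 0 to 1 without single libraries and 0 to 7 with the block (at 7, 10.7%). In WT+R vs WT, 2 were called, against 4 with the replicate block (4.57%), 6 in DESeq2 with the block (6.6%), 0 in a fit of only the 2 groups compared, 0 to 1 without single libraries and 0 to 5 with the block (at 5, 4.38%). In WT+P vs WT, 0 were called, against 0 to 1 without single libraries and 0 to 6 with the block (at 6, 8.62%). Over 14 gene and comparison pairs followed through the settings, 208 values kept their side of the threshold, 23 lost it, 21 gained it and 0 changed direction. Other values did change direction: the members' median in WT+R vs WT (−0.17, and 0.08 with the block), in WT+P vs WT (−0.32, and 0.02 with the block without WT+P replicate 1) and in KO+R vs KO (0.01, and −0.19 to 0.16 without single libraries), and Lox in KO vs WT (−1.24, and −2.11 to 1.04 without single libraries). The causes were not tested. The 14 pairs were picked from these same data, as called or as the largest differences without overlap, so a change of direction was unlikely. Most of the pairs were not called by edgeR without the block, so many values that kept their side were ones that stayed uncalled. With the effective length offset the adjusted p of Lamc1 in KO+R vs KO was 0.315 from edgeR. With 1 library left in an arm, it was assumed to vary like the other groups. Postn was too low in counts to be tested.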
